A study of Rattus norvegicus with 16 samples.

Results

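Genes of the proteasome, the protease that degrades ubiquitin-tagged proteins, were followed in rat corneas 2 days after suturing. A gene was taken as a member when a probe set carried a single gene symbol made of Psma, Psmb, Psmc, Psmd or Psme and a number. This gave 39 genes on 53 probe sets, out of 14217 genes and 31042 tested probe sets on the array. A total of 30 genes had 1 probe set and 9 had more, and each gene was read from its probe set with the highest mean signal. *Psma8*, *Psmb6*, *Psmb11* and *Psme3* had no probe set of their own in the annotation used here, so no value is given for them.

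The study used male Wistar rats aged 12 to 16 weeks and hybridised each of 16 corneas, 4 to a group, to its own array. Naïve corneas were not sutured and received no drops. The right corneas of the other groups carried 2 sutures at a distance of 1.5 mm to the limbus, and drops were given 4 times a day for 2 days. The drops held an antibody against rat *Vegf*, dexamethasone at 1 mg/ml, or IgG as a sham, which the labels name both as goat IgG and as an anti-IgG antibody. The labels give 20 mg/ml and the study's methods 20 µg/ml for both antibodies. The piece of cornea between the sutures and the temporal limbus was harvested, so each array holds epithelium, stroma and any infiltrating cells together. In such tissue, more cells of a type and more RNA per cell cannot be told apart.

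The 20S core of the proteasome is a barrel of alpha rings at the ends and beta rings in the middle, with the proteolytic sites on *Psmb5*, *Psmb6* and *Psmb7*. The 19S particle caps the barrel, binds ubiquitin chains and unfolds substrates with the ATPase ring encoded by the *Psmc* genes, while most *Psmd* genes encode its other subunits. In leukocytes, and in other cells exposed to interferon-gamma, *Psmb8*, *Psmb9* and *Psmb10* take the places of *Psmb5*, *Psmb6* and *Psmb7* to form the immunoproteasome. It is known for producing peptides that fit MHC class I molecules. *Psme1* and *Psme2* encode the PA28 activator, an alternative cap that is also inducible by interferon-gamma.

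The whole arrays gave 4 facts that touch the results below. First, leukocyte signals were high in all sutured groups. The mean log2 signal over 10 pan-leukocyte markers was 6.49 to 6.68 on naïve arrays, 8.01 to 8.50 with IgG, 8.09 to 8.25 with anti-*Vegf* and 7.75 to 8.52 with dexamethasone. The mean over 8 corneal epithelium markers lay between 13.52 and 13.78 on every array, though its members moved both ways: with IgG, *Krt14* and *Krt15* were higher and *Aldh3a1*, *Pax6* and *Tkt* lower by the adjusted p, with log2 changes over the list of −0.44 to 1.62. Further, lens fibre markers (6 genes) averaged 7.44 to 9.92 on dexamethasone arrays, highest in replicate F26, and 5.12 to 6.39 on all others. Next, the poly-A control transcripts, which the array kit adds to the RNA, averaged 4.73 to 4.94 on naïve and 4.82 to 5.15 on dexamethasone arrays, against 6.40 to 6.97 with IgG and 6.36 to 6.61 with anti-*Vegf*. Comparisons of dexamethasone with naïve and of anti-*Vegf* with IgG were therefore made at like control levels, while in the others the control level and the treatment cannot be told apart. Last, the log2 difference of probe sets near the 5′ end from those near the 3′ end, a sign of RNA quality, set naïve and dexamethasone arrays below the others. For *Gapdh* it was −0.43 to −0.16 on naïve arrays and −0.48 to −0.32 with dexamethasone, against −0.15 to −0.04 with IgG and −0.16 to −0.08 with anti-*Vegf*. For beta-actin it was −1.75 to −0.82, −1.38 to −0.95, −0.79 to −0.59 and −1.19 to −0.60 in the same order, and the part of RNA quality in the results was not tested. *Tsc22d3*, a glucocorticoid target, was higher with dexamethasone than with IgG by 1.94 on the log2 scale (adjusted p = 0.000538 from limma), a check of these labels.

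*Psmb8*, *Psmb9* and *Psmb10* were higher in all sutured groups than in naïve corneas, by 1.84- to 2.88-fold, and they were the only proteasome genes that passed both limits in any comparison with naïve corneas. The limits were an adjusted p under 0.05 from limma, with Benjamini-Hochberg adjustment over all tested probe sets, and a fold change of at least 1.5. With these limits, 3 of 39 members were called for IgG, beside 11.3% of all 14217 genes in either direction. For anti-*Vegf* 3 of 39 were called beside 12.8%, and for dexamethasone 3 of 39 beside 12.6%. The proteasome as a whole thus held no larger share of called genes than the array did.

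The log2 signal of *Psmb8*, which encodes the chymotrypsin-like subunit of the immunoproteasome, was 7.58, 7.89, 7.84 and 8.46 on the naïve arrays. It was 10.17, 9.59, 8.89 and 8.98 with IgG (replicates F17, F19, F22 and F23), 9.36, 9.55, 9.49 and 9.48 with anti-*Vegf* (F1x, F2, F6 and F7), and 8.50, 9.53, 8.92 and 9.53 with dexamethasone (F25, F26, F27 and F30). Every sutured cornea lay above every naïve cornea, with dexamethasone replicate F25 nearest to naïve replicate 4. The log2 change from naïve corneas was 1.46 with IgG (standard error 0.27, adjusted p = 0.000894 from limma), 1.53 with anti-*Vegf* (adjusted p = 0.000582 from limma) and 1.18 with dexamethasone (adjusted p = 0.00473 from limma).

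*Psmb9*, which lies beside *Tap1* in the MHC region, measured 8.00, 8.10, 8.69 and 9.02 on the naïve arrays. With IgG it measured 10.31, 9.62, 9.50 and 9.36, with anti-*Vegf* 9.81 to 10.10, and with dexamethasone 9.10, 10.13, 9.56 and 10.03. Again no sutured array overlapped with the naïve ones. The log2 changes were 1.25 with IgG (standard error 0.25, adjusted p = 0.00186 from limma), 1.50 with anti-*Vegf* (adjusted p = 0.000411 from limma) and 1.25 with dexamethasone (adjusted p = 0.00197 from limma).

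*Psmb10*, the subunit with trypsin-like activity, measured 8.25, 7.99, 8.46 and 9.03 on the naïve arrays. With IgG it measured 9.88, 9.28, 9.02 and 9.11, with anti-*Vegf* 9.49, 9.37, 9.46 and 9.59, and with dexamethasone 9.41, 9.17 and 9.66 in replicates F26, F27 and F30, while F25 lay just below naïve replicate 4. Naïve replicate 4 overlapped with the lowest IgG and dexamethasone arrays, and only the anti-*Vegf* group stood clear of all naïve corneas. The changes were the smallest of the 3 subunits, at 0.89 with IgG (standard error 0.21, adjusted p = 0.00502 from limma), 1.05 with anti-*Vegf* (adjusted p = 0.00155 from limma) and 0.88 with dexamethasone (adjusted p = 0.00613 from limma). Naïve replicate 4 was the highest naïve array for all of *Psmb8*, *Psmb9* and *Psmb10*.

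**Figure D1:**
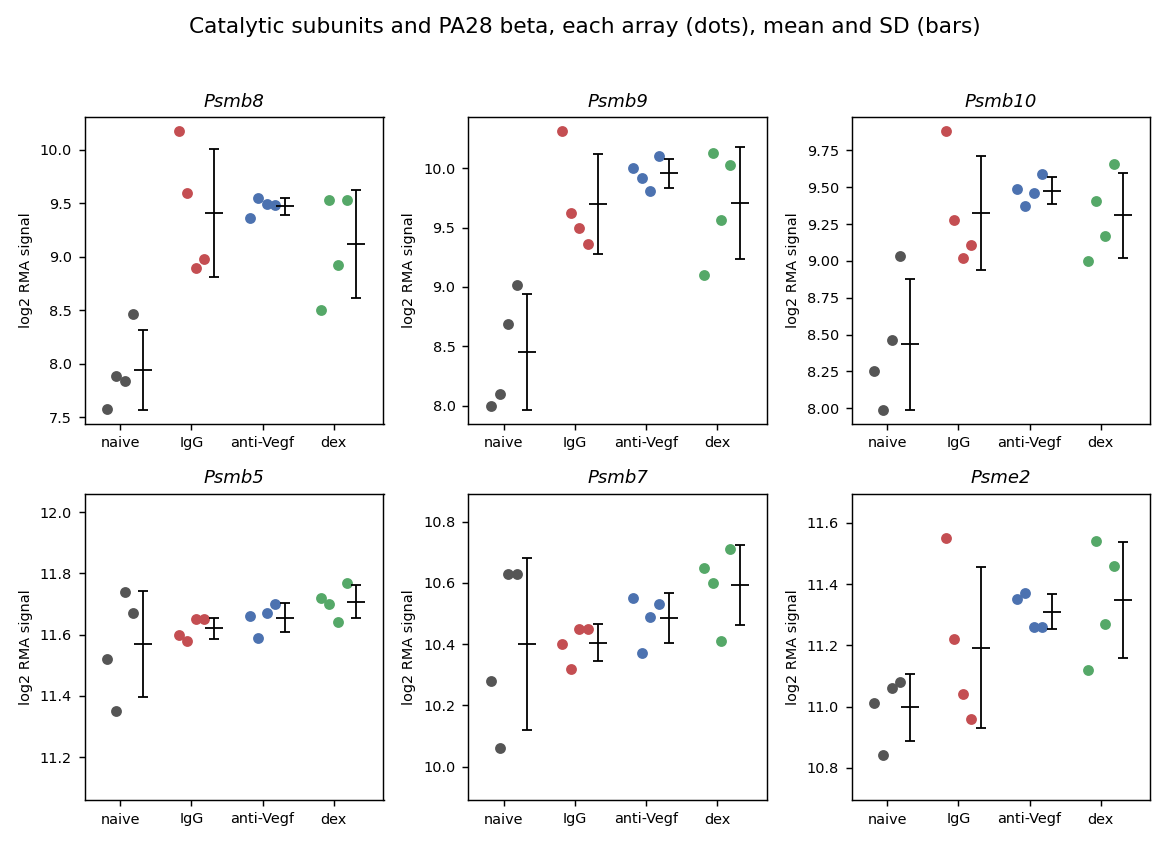
Log2 RMA signal (y axis, own scale per panel, spanning at least 1) of *Psmb8*, *Psmb9*, *Psmb10*, *Psmb5*, *Psmb7* and *Psme2* in naïve, IgG, anti-*Vegf* and dexamethasone treated corneas (x axis); dots are single arrays and bars the mean with SD, n = 4. *Psmb8* and *Psmb9* of every sutured cornea lie above the naïve corneas, while *Psmb5* stays between 11.35 and 11.77.

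The rise of these subunits came with the leukocyte signals given above, in all sutured groups. Of the 10 pan-leukocyte markers, 8 were called higher with IgG, 8 with anti-*Vegf* and 7 with dexamethasone. Beside them, 11.3%, 12.8% and 12.6% of all genes were called in either direction. *Ptprc*, which encodes the leukocyte antigen CD45, went from 4.04 to 4.25 on naïve arrays to 7.27 to 8.22 with IgG, 7.68 to 8.40 with anti-*Vegf* and 6.62 to 8.37 with dexamethasone. The 6 neutrophil markers measured averaged 5.64 to 5.84 on naïve arrays and 7.60 to 9.22 on sutured ones, and the 10 monocyte and macrophage markers 5.98 to 6.46 and 7.52 to 8.43. Of the 12 T and NK cell markers, 1 was called higher in each group, beside the same shares of all genes. By the adjusted p alone, 5, 3 and 2 were higher with IgG, anti-*Vegf* and dexamethasone, beside 13.4%, 14.7% and 16.1% of all genes. The mean over these 12 markers was 5.12 to 5.19 on naïve arrays and 5.13 to 5.38 with dexamethasone. It was 5.43 to 5.49 with IgG and 5.30 to 5.54 with anti-*Vegf*, without overlap with naïve arrays. The part of infiltrating cells in the immunoproteasome signal was not tested.

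The promoters of *Psmb8*, *Psmb9* and *Psmb10* are shown because these genes moved together, with that of *Psme2*, the PA28 subunit with the larger change. Each runs from 250 bases before to 30 bases after the start of the gene (RefSeq, build GRCr8), on the gene's own strand. Capitals mark matches on either strand to the core of the interferon-stimulated response element, GAAANNGAA, or to the gamma-activated site, TTCNNNGAA, where N is any base. No match of one motif overlapped with a match of the other in these sequences. *Psmb8* lies on the minus strand at chr20:4657002-4657281, and its first capitals are a gamma-activated site and its second a response element across the start. *Psmb9* lies on the plus strand at chr20:4668750-4669029 and holds neither motif in this window. *Psmb10* lies on the minus strand at chr19:50743263-50743542 with 3 matches to the response element, of which the first 2 overlap, and *Psme2* on the minus strand at chr15:33052722-33053001 with 1.
Psmb8: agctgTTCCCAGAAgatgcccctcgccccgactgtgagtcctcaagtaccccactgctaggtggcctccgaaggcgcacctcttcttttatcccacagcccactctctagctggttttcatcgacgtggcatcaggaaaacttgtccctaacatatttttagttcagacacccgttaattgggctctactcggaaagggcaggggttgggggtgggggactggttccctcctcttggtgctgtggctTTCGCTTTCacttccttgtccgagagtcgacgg
Psmb9: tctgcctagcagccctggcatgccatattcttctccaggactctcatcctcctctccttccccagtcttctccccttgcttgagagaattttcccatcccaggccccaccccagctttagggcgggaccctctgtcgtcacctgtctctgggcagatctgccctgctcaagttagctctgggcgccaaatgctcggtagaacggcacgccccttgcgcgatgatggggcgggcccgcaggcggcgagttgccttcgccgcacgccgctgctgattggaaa
Psmb10: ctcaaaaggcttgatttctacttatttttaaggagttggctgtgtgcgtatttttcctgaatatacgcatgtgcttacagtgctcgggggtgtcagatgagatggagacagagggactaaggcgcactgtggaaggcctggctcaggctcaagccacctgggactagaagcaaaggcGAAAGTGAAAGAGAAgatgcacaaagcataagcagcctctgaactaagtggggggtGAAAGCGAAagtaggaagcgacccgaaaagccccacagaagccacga
Psme2: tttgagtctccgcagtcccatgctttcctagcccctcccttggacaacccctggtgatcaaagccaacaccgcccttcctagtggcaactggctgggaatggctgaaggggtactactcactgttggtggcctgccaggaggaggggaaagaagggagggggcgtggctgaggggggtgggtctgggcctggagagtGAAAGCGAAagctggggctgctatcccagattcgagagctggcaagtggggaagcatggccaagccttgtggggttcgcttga

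The response element core was found in 8 of the 35 member promoters that RefSeq lists (22.9%), against 9.22% of all 33469 promoters. The other carriers were *Psma4*, *Psmb2*, *Psmb3*, *Psmd7* and *Psmd11*, whose log2 changes from naïve corneas ranged from −0.14 to 0.39. The gamma-activated site was in 4 member promoters (11.4%), those of *Psmb8*, *Psmc6*, *Psmd3* and *Psmd7*, against 8.42% of all. These matches are a description of the sequence, and the motif alone did not separate the members that rose from those that did not. In the RefSeq gene order, *Tap2*, *Psmb8*, *Tap1* and *Psmb9* are neighbours, with the class II gene *RT1-DMb* next to *Psmb9*.

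The immunoproteasome subunits did not differ between treatments by the test. Between dexamethasone and IgG, the log2 difference was −0.29 for *Psmb8* (95% interval −0.86 to 0.29, adjusted p = 0.557 from limma), 0.00 for *Psmb9* (−0.54 to 0.54, adjusted p = 0.994) and −0.01 for *Psmb10* (−0.46 to 0.43, adjusted p = 0.982). Between dexamethasone and anti-*Vegf* it was −0.35 (−0.92 to 0.22), −0.25 (−0.79 to 0.29) and −0.17 (−0.61 to 0.28) for the same genes, with adjusted p of 0.497, 0.619 and 0.706 from limma. Between anti-*Vegf* and IgG it was 0.06 (−0.51 to 0.64), 0.26 (−0.28 to 0.80) and 0.16 (−0.29 to 0.60), with adjusted p of 0.995, 0.967 and 0.977 from limma. With intervals that reach to −0.92, these p-values do not show that the treatments acted alike.

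The spread within groups differed. The SD of *Psmb8* was 0.08 over the anti-*Vegf* arrays, against 0.37 in naïve, 0.59 in IgG and 0.50 in dexamethasone treated corneas. For *Psmb9* the SD was 0.13 with anti-*Vegf* and 0.42 to 0.49 in the other groups, and for *Psmb10* 0.09 against 0.29 to 0.44. IgG replicate F17 was the highest and dexamethasone replicate F25 the lowest sutured array of *Psmb9* and *Psmb8*. These differences in spread were not tested.

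The constitutive counterparts did not pass the test in any comparison. *Psmb5*, the subunit that *Psmb8* replaces, measured 11.52, 11.35, 11.74 and 11.67 on the naïve arrays and lay between 11.58 and 11.77 on all sutured arrays. Its log2 change was 0.05 with IgG, 0.09 with anti-*Vegf* and 0.14 with dexamethasone (standard error 0.08; adjusted p = 0.676, 0.466 and 0.258 from limma). *Psmb7*, replaced by *Psmb10*, measured 10.28, 10.06, 10.63 and 10.63 on the naïve arrays and 10.32 to 10.71 on the sutured ones. Its log2 change was 0.01, 0.08 and 0.19 (standard error 0.11; adjusted p = 0.98, 0.646 and 0.267 from limma).

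The change of each immunoproteasome subunit was then set against that of its counterpart on the same array. The log2 difference *Psmb8* minus *Psmb5* lies on 2 probe sets, so its size has no meaning of its own and only its change between groups is read. It rose by 1.41 with IgG and by 1.44 with anti-*Vegf*, with no overlap with naïve corneas (exact two-sided permutation p = 0.029 each, the smallest that 4 against 4 arrays allow). With dexamethasone it was 1.04 higher than in naïve corneas, where replicate F25 at −3.22 fell just below naïve replicate 4 at −3.21 (exact permutation p = 0.057). *Psmb10* minus *Psmb7* rose by 0.88 with IgG and 0.96 with anti-*Vegf* (exact permutation p = 0.029 each), and was 0.69 higher with dexamethasone (exact permutation p = 0.057). Over the 12 tests of this kind, the Benjamini-Hochberg adjusted p was 0.086 for the first 4 and at least 0.098 for the rest, so none passed 0.05 after adjustment. As no exact p can be under 0.029, passing would have needed most of the 12 tests to reach that floor. The adjusted values therefore do not decide whether these differences changed. Between treatments the change ranged from −0.40 to 0.08. *Psmb9* could not be set against *Psmb6*, which had no probe set of its own.

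The constitutive members changed by less than the fold limit. Over the 36 members without *Psmb8*, *Psmb9* and *Psmb10*, the median log2 change was 0.05 with IgG (range −0.23 to 0.25), 0.16 with anti-*Vegf* (−0.14 to 0.40) and 0.18 with dexamethasone (−0.26 to 0.53). The median over all 14217 genes was −0.01, −0.01 and 0.00. A total of 34 of these 36 members were above 0 with dexamethasone, 28 with anti-*Vegf* and 24 with IgG, whereas 50.8%, 49.0% and 48.8% of all genes were. This direction depended on which scaling was used. With cyclic loess it was kept, at medians of 0.07, 0.14 and 0.19. Under that scaling 26, 28 and 34 members were above 0 with IgG, anti-*Vegf* and dexamethasone. With arrays centred on 9 reference genes, the medians were −0.09, 0.00 and 0.01, and 13, 19 and 20 members were above 0 with IgG, anti-*Vegf* and dexamethasone, as that scaling lowers the median of all probe sets too. Of these 9 reference genes, 3, 3 and 2 were themselves higher than in naïve corneas by the adjusted p, and 0 lower. Their largest log2 changes were 0.68, 0.87 and 0.79, in the same order of groups. The changes of *Psmb8*, *Psmb9* and *Psmb10* kept their direction and their calls under both scalings.

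By the adjusted p alone, with no fold limit, 5 of 39 members were higher with IgG, beside 13.4% of all genes, and 1 was lower, beside 15.7%. With anti-*Vegf* 11 were higher, beside 14.7%, and 0 lower, beside 15.9%. With dexamethasone 16 were higher, beside 16.1%, and 1 lower, beside 12.4%. The share of members that were higher was thus close to the background with IgG and above it with dexamethasone and anti-*Vegf*, a difference that was not tested. The counts include the 3 immunoproteasome subunits, and the comparisons share the naïve arrays. Without these subunits 2, 8 and 13 members were higher, and single arrays moved these counts: with dexamethasone to 7 without its replicate F26 or without naïve replicate 1, to 8 without F30 and to 6 without naïve replicate 2, and with anti-*Vegf* to 5 without naïve replicate 2. With arrays centred on reference genes, 0, 2 and 2 were higher and 7, 4 and 2 lower. With cyclic loess, 3, 8 and 13 were higher and 1, 0 and 1 lower.

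**Figure D2:**
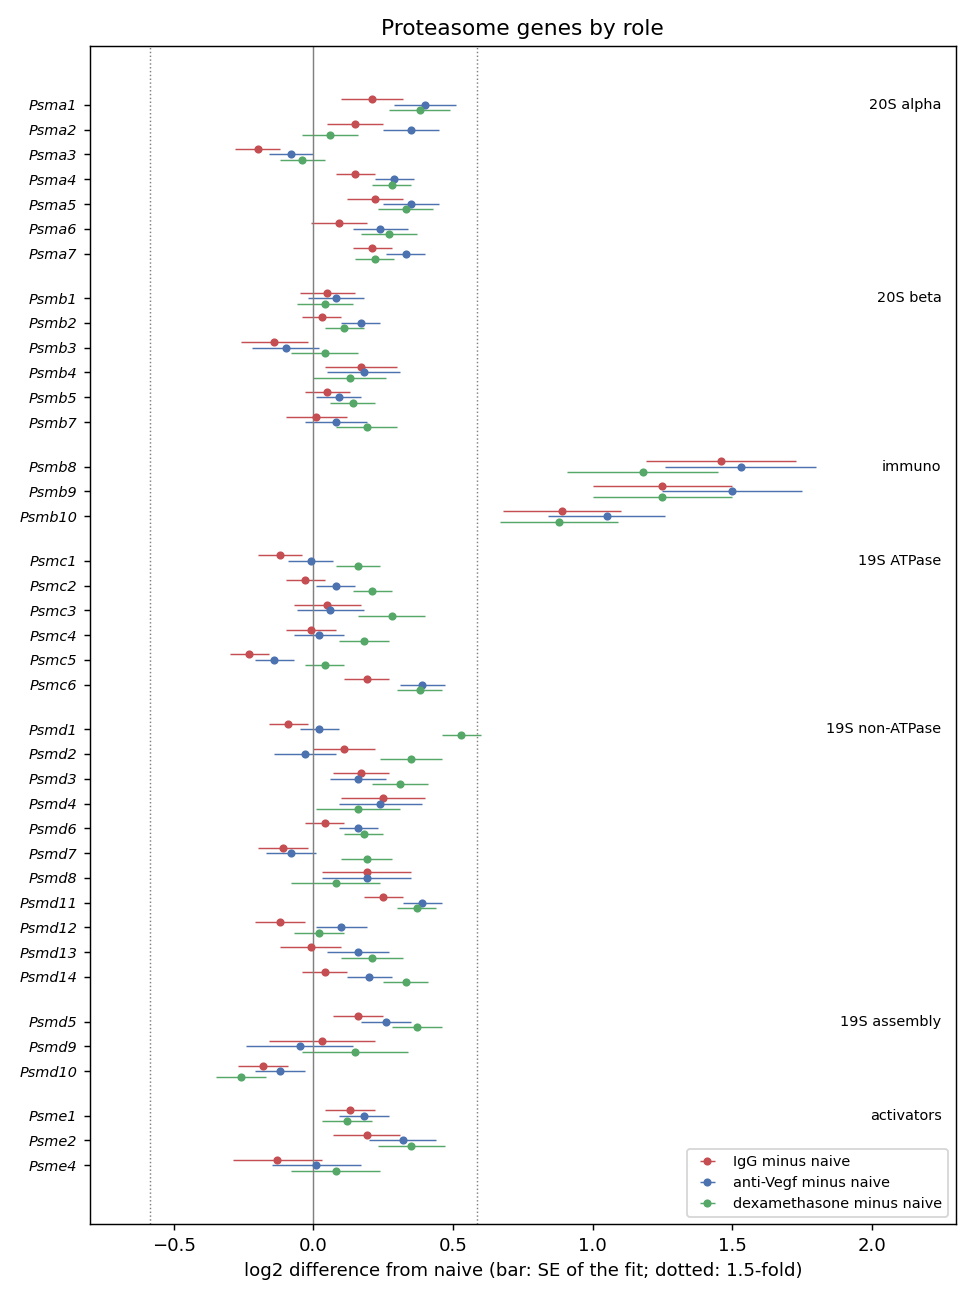
Log2 difference from naïve corneas (x axis; bars are the standard error of the limma fit, dotted lines 1.5-fold) for each of the 39 proteasome genes (y axis, grouped by role), with IgG in red, anti-*Vegf* in blue and dexamethasone in green. *Psmb8*, *Psmb9* and *Psmb10* lie right of the dotted line with every treatment, all other genes between −0.26 and 0.53.

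Among the alpha ring genes, whose products gate the entry to the 20S core, 5 of 7 rose with anti-*Vegf* by the adjusted p alone, beside 14.7% of all genes. As given above, only 2 of all 36 constitutive members were higher in that comparison with arrays centred on reference genes, and 8 with cyclic loess. *Psma1* rose by 0.40 (adjusted p = 0.0109 from limma), *Psma2* and *Psma5* by 0.35 each, *Psma7* by 0.33 and *Psma4* by 0.29. With dexamethasone 4 of 7 rose, beside 16.1% of all genes, namely *Psma1* (0.38), *Psma5* (0.33), *Psma4* (0.28) and *Psma7* (0.22). With IgG 1 of 7 rose, beside 13.4% and so near the background, namely *Psma7* (0.21, adjusted p = 0.0356 from limma). The signal of *Psma7* was 11.19 to 11.42 on naïve arrays, 11.47 to 11.57 with IgG, 11.55 to 11.76 with anti-*Vegf* and 11.47 to 11.62 with dexamethasone, so that no sutured array overlapped with a naïve one. *Psma3* was the only alpha gene below 0 in all 3 comparisons, at −0.20, −0.08 and −0.04, and did not pass the test.

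Of the 6 constitutive beta ring genes measured, 0 passed the adjusted limma threshold in any comparison. Of all genes, 13.4%, 14.7% and 16.1% were higher than in naïve corneas with IgG, anti-*Vegf* and dexamethasone, and 15.7%, 15.9% and 12.4% lower. With only 6 genes, a count of 0 does not set this ring apart from those shares. At an unadjusted p under 0.05, 1 was higher with anti-*Vegf*, a limit at which the share of all genes was not counted. The log2 changes of these 6 genes from naïve corneas ranged from −0.14 to 0.19. The members that moved least were *Psmb7* (0.01), *Psmc4* (−0.01) and *Psmd13* (−0.01) with IgG, and *Psmc1* (−0.01), *Psme4* (0.01) and *Psmc4* (0.02) with anti-*Vegf*. With dexamethasone they were *Psmd12* (0.02), *Psma3* (−0.04) and *Psmb1* (0.04).

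In the ATPase ring of the 19S particle, *Psmc6* was higher with anti-*Vegf* (0.39, adjusted p = 0.00166 from limma) and dexamethasone (0.38, adjusted p = 0.00247 from limma). *Psmc2* was higher with dexamethasone (0.21, adjusted p = 0.0332 from limma), a call lost without F26 (adjusted p = 0.0963 from limma). *Psmc5* was the only member lower with IgG (−0.23, adjusted p = 0.023 from limma), a call lost without IgG replicate F19 or without naïve replicate 3 or 4. Among the 11 non-ATPase subunits, *Psmd11*, a scaffold subunit of the lid, rose in all sutured groups, by 0.25 with IgG, 0.39 with anti-*Vegf* and 0.37 with dexamethasone (adjusted p = 0.0107, 0.000436 and 0.000745 from limma). Its signal was 10.60 to 10.76 on naïve arrays, 10.83 to 10.97 with IgG, 10.99 to 11.13 with anti-*Vegf* and 11.00 to 11.14 with dexamethasone, without overlap between naïve and sutured corneas. Its other 2 probe sets changed by −0.10 to 0.07 and did not pass. With dexamethasone, *Psmd1* (0.53), *Psmd2* (0.35), *Psmd14* (0.33) and *Psmd3* (0.31) were also higher. The other 2 probe sets of *Psmd14* were at 0.14 and 0.20 in this comparison and did not pass, and those of *Psmc6* at 0.24 (adjusted p = 0.0437 from limma) and −0.02.

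Of the 3 assembly chaperones of the 19S base, *Psmd5* rose with anti-*Vegf* (0.26, adjusted p = 0.0343 from limma) and dexamethasone (0.37, adjusted p = 0.00519 from limma). *Psmd10*, also known as gankyrin, was the only member lower with dexamethasone (−0.26, adjusted p = 0.0478 from limma). This call was lost in most fits without 1 array, among them those without replicate F26, F27 or F30. Of the PA28 genes, *Psme1* measured 11.66 to 11.88 on naïve and 11.75 to 12.12 on sutured arrays, with log2 changes of 0.13, 0.18 and 0.12 that did not pass (adjusted p = 0.301, 0.144 and 0.38 from limma). *Psme2* measured 11.01, 10.84, 11.06 and 11.08 on the naïve arrays and 11.55, 11.22, 11.04 and 10.96 with IgG. It measured 11.35, 11.37, 11.26 and 11.26 with anti-*Vegf* and 11.12, 11.54, 11.27 and 11.46 with dexamethasone. Only the IgG arrays overlapped with the naïve ones, and the log2 change was 0.19 with IgG (standard error 0.12, adjusted p = 0.25 from limma), 0.32 with anti-*Vegf* (adjusted p = 0.061 from limma) and 0.35 with dexamethasone (adjusted p = 0.0437 from limma). The PA28 genes thus changed by at most 1.27-fold, and the immunoproteasome subunits by at least 1.84-fold.

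Between treatments, some subunits of the 19S particle were higher with dexamethasone than with IgG, of which *Psmd1* alone kept its call under all alternatives. Of the 39 members, 6 were higher with dexamethasone than with IgG at an adjusted p under 0.05 from limma, beside 7.41% of all genes. In that comparison 0 were lower, beside 3.16%. The 6 members were *Psmd1*, *Psmd7*, *Psmd14*, *Psmc1*, *Psmc2* and *Psmc5*, all subunits of the 19S particle. At an unadjusted p under 0.05, 9 were higher and 0 lower. The share of all genes at this unadjusted limit was not counted, and the shares above do not apply to it. The count of 6 fell to 1 with arrays centred on reference genes and to 1 without IgG replicate F17 or F19 or dexamethasone replicate F26. Against anti-*Vegf*, only *Psmd1* was higher, beside 4.63% of all genes, and 0 members were lower, beside 2.5%. At an unadjusted p under 0.05, 5 were higher and 1 lower, again with no share of all genes counted. Between anti-*Vegf* and IgG, 0 members were called by limma, beside 0.0% of all genes, and at an unadjusted p under 0.05 there were 3 of 39, beside 6.63%.

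*Psmd1*, which encodes the largest scaffold of the 19S base and holds docking sites for ubiquitin receptors, measured 9.36, 9.32, 9.21 and 9.33 on the naïve arrays. It measured 9.19, 9.19, 9.16 and 9.31 with IgG, 9.34, 9.17, 9.43 and 9.35 with anti-*Vegf*, and 9.83, 9.87, 9.76 and 9.88 with dexamethasone. Every dexamethasone array lay above all 12 others, while the other groups overlapped with each other. The log2 difference was 0.62 from IgG (95% interval 0.47 to 0.78, adjusted p = 0.000136 from limma), 0.51 from anti-*Vegf* (0.36 to 0.67, adjusted p = 0.000845) and 0.53 from naïve corneas (0.38 to 0.68, adjusted p = 6.4e-05), where it is 1.45-fold and under the fold limit. The difference from naïve corneas was made at like poly-A control levels. Without replicate F26, the array with the highest lens signal, these were 0.61, 0.50 and 0.52, with adjusted p of 0.000636, 0.00348 and 0.00037 from limma. The other 3 dexamethasone arrays still averaged 7.44 to 8.23 over the lens markers, above all 12 other arrays, so lens signal and dexamethasone cannot be told apart here.

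The promoter of *Psmd1* is shown because this was the member that set dexamethasone apart. It lies on the plus strand at chr9:94157721-94158000 (GRCr8), over the same window of 280 bases. Capitals mark the match to the antioxidant response element core, TGACNNNGC, which is a site of the kind bound by NFE2L1, the factor known to control proteasome genes. This core is in 7 of 35 member promoters (20.0%) and in 11.3% of all promoters, and the other carriers are *Psma3*, *Psmb2*, *Psmb5*, *Psmd3*, *Psmd9* and *Psme4*. None of these other carriers was called between dexamethasone and IgG. *Psmc1*, *Psmc2*, *Psmc5* and *Psmd7*, which were called, held no match, and *Psmd14* was not among the promoters listed. The match is a description of the sequence, and its part in the change of *Psmd1* was not tested.
Psmd1: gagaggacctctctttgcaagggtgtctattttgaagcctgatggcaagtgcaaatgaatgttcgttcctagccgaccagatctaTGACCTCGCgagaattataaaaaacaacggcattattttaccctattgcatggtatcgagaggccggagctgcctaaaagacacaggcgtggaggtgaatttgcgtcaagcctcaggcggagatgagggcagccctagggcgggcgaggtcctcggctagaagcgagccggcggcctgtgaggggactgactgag

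The other 5 differences between dexamethasone and IgG were smaller, from 0.23 to 0.30 on the log2 scale. *Psmc5* measured 10.25, 10.22, 10.27 and 10.28 with IgG and 10.57, 10.56, 10.44 and 10.56 with dexamethasone (difference 0.28, adjusted p = 0.0226 from limma). On naïve arrays it measured 10.38, 10.39, 10.56 and 10.62, so dexamethasone treated corneas overlapped with naïve ones (0.04, 95% interval −0.11 to 0.20) and IgG treated corneas lay below them. *Psmd14*, the enzyme that removes ubiquitin chains from substrates, measured 10.86, 10.89, 10.89 and 10.92 with IgG and 11.30, 11.21, 11.14 and 11.08 with dexamethasone (0.29, adjusted p = 0.0256 from limma).

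*Psmc1* differed by 0.28 (adjusted p = 0.029 from limma), from 9.81 to 10.03 with IgG to 10.11 to 10.29 with dexamethasone, and *Psmc2* by 0.23 (adjusted p = 0.0344 from limma), from 11.21 to 11.30 to 11.42 to 11.54. *Psmd7* differed by 0.30 (adjusted p = 0.0462 from limma), from 9.68 to 9.78 to 9.87 to 10.12. In all 5 the dexamethasone arrays did not overlap with the IgG arrays. The second probe set of *Psmd7* and the other 2 of *Psmd14* gave −0.04, 0.10 and 0.05 for the same comparison, with no call. Without replicate F26, none of the 5 passed (adjusted p = 0.056 to 0.104 from limma), with differences of 0.21 to 0.29. IgG and dexamethasone arrays also differed without overlap in poly-A controls, in lens markers and in the 5′ to 3′ differences of beta-actin and *Gapdh* given above, whose part in the differences of the 19S genes was not tested.

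**Figure D3:**
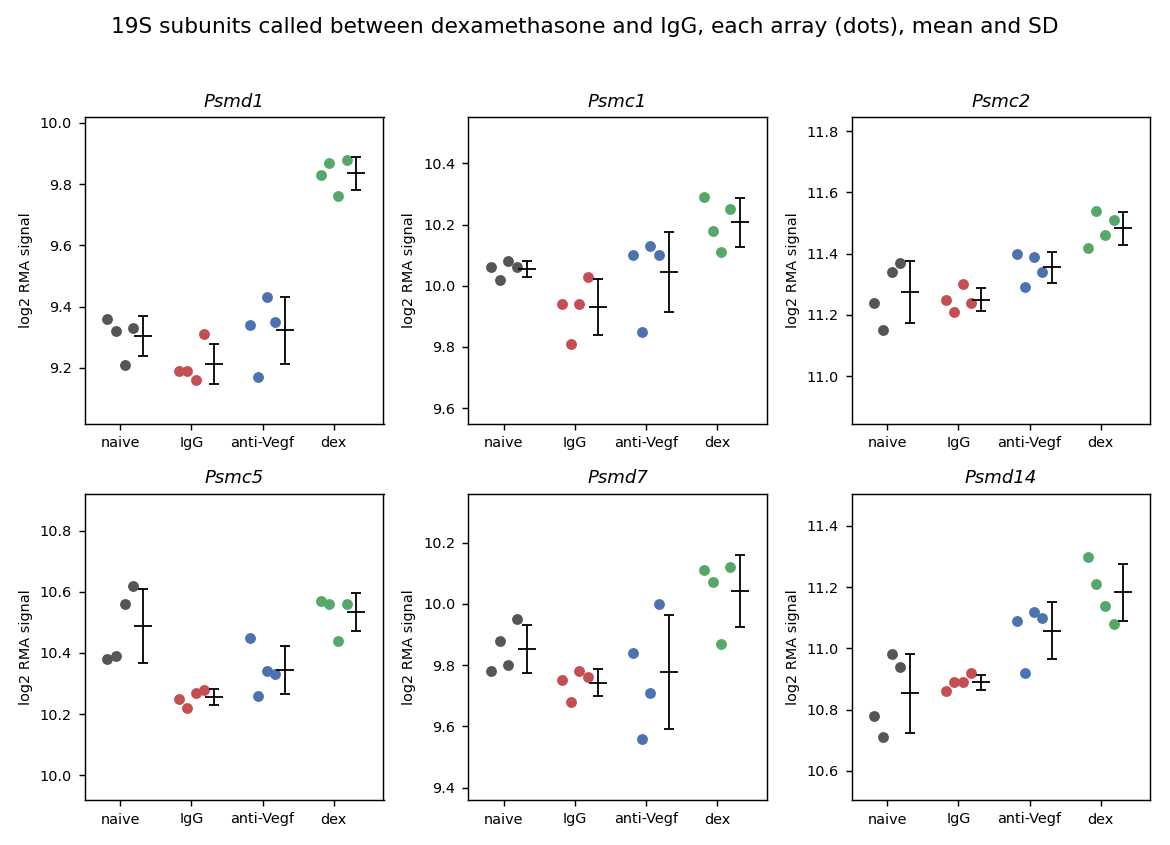
Log2 RMA signal (y axis, own scale per panel, spanning at least 1) of the 6 19S genes called between dexamethasone and IgG, in the 4 groups (x axis); dots are single arrays and bars the mean with SD, n = 4. *Psmd1* of the dexamethasone arrays stands at 9.76 to 9.88, above every other array.

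Genes of MHC class I peptide loading, which act beside the immunoproteasome, were mostly higher in sutured corneas too. The list held no class I heavy chain, and the study reports one, *RT1-A2*, as lower with dexamethasone than with IgG. Of 10 genes of MHC class I peptide loading measured, 6 were called higher with IgG, 6 with anti-*Vegf* and 6 with dexamethasone, and 0 lower, beside 11.3%, 12.8% and 12.6% of all genes called in either direction, with median log2 changes of 0.64, 0.62 and 0.62. *Tap1* and *Tap2*, the peptide transporter into the endoplasmic reticulum, rose by 0.88, 1.07 and 1.04 and by 0.69, 0.62 and 0.65 with IgG, anti-*Vegf* and dexamethasone. *B2m*, the light chain of class I molecules, went from 12.06 to 12.27 on naïve arrays to 12.96 to 13.27 with IgG, 13.19 to 13.50 with anti-*Vegf* and 12.73 to 13.37 with dexamethasone, changes of 1.00, 1.20 and 0.92. *Nlrc5*, the transactivator of class I genes, rose by 0.77 with IgG and 0.87 with anti-*Vegf*, and the first call was lost without naïve replicate 2 (0.54). It was 0.58 higher with dexamethasone, under the fold limit. The calls of *Tap1* were lost when its probe sets were averaged (0.50 to 0.58) and those of *Tap2* when arrays were centred on reference genes, while *B2m* kept its calls. *Tap2* also fell under the limits without replicate F17 for IgG, without naïve replicate 1 or 2 for anti-*Vegf*, and without F26 or naïve replicate 1 for dexamethasone, with log2 changes of at least 0.46 throughout. Between treatments, *Tap1*, *Tap2* and *B2m* did not pass the test (adjusted p of at least 0.176 from limma). *Hspa5* and *Canx*, chaperones of the endoplasmic reticulum, were higher with dexamethasone than with IgG, by 0.38 and 0.23. The call of *Hspa5* was lost without F17. That of *Canx* was lost in 3 of 8 other settings, down to 0.09 with the mean of its probe sets, and in 6 of 16 fits without 1 array.

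Of 13 genes of interferon-gamma signalling, 4, 5 and 5 were called higher and 0, 1 and 1 lower with IgG, anti-*Vegf* and dexamethasone, beside 11.3%, 12.8% and 12.6% of all genes called in either direction. *Gbp2*, a guanylate-binding protein induced by interferon, rose by 3.77, 4.09 and 2.91, *Ifngr1* by 2.05, 1.92 and 1.91, and *Irf9* by 1.56, 1.69 and 1.23. The gene called lower with anti-*Vegf* and dexamethasone was *Ifngr2*. With IgG, *Ifngr2* was lower by the adjusted p alone, under the fold limit. *Ifng* itself measured 3.14 to 3.54 on all arrays, a mean signal higher than that of only 2.9% of all probe sets, and its changes of −0.04, −0.17 and −0.07 did not pass. *Irf1* encodes a transcription factor that acts on *Psmb9* and *Tap1*. It measured 11.42, 11.48, 11.31 and 11.26 with IgG, 11.33, 11.35, 11.36 and 11.63 with anti-*Vegf* and 10.87, 10.68, 10.44 and 10.95 with dexamethasone. By the adjusted p, *Irf1* was higher than in naïve corneas with anti-*Vegf*, beside 14.7% of all genes, and did not pass with IgG or dexamethasone. Dexamethasone was lower for *Irf1* than IgG by −0.63 (adjusted p = 0.00502 from limma) and lower than anti-*Vegf* by −0.68 (adjusted p = 0.00513 from limma), without overlap. In both comparisons the arrays also differed in poly-A controls, lens markers and the 5′ to 3′ difference of *Gapdh*, whose part was not tested. In the same comparisons *Psmb8* differed by −0.29 and −0.35 and *Psmb9* by 0.00 and −0.25, neither was called, and whether their changes differ from that of *Irf1* was not tested.

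**Figure D4:**
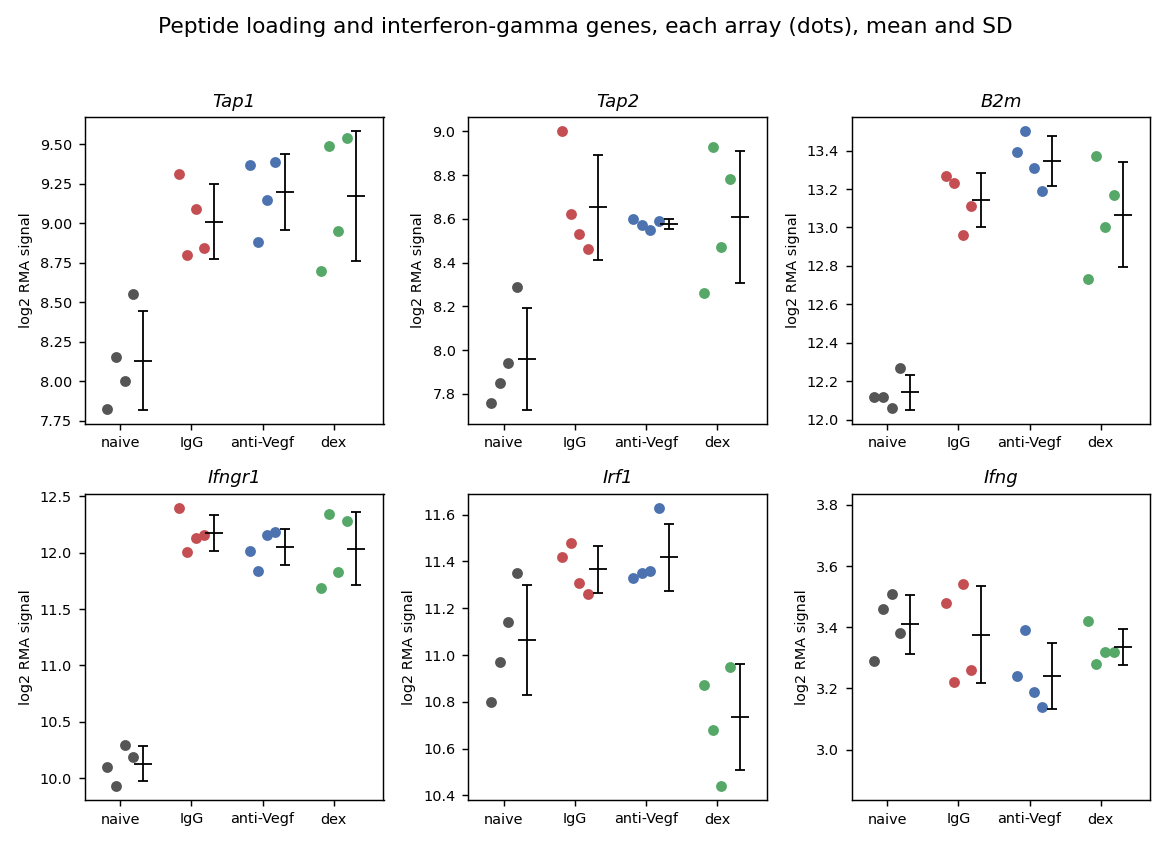
Log2 RMA signal (y axis, own scale per panel, spanning at least 1) of *Tap1*, *Tap2*, *B2m*, *Ifngr1*, *Irf1* and *Ifng* in the 4 groups (x axis); dots are single arrays and bars the mean with SD, n = 4. *Tap1*, *B2m* and *Ifngr1* lie above the naïve arrays in all sutured groups, *Irf1* is lowest with dexamethasone (10.44 to 10.95), and *Ifng* stays at 3.14 to 3.54.

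Genes that serve the proteasome from outside its particles were also followed. Of 6 assembly factors of the 20S core and its inhibitor, 1 was called, *Psmg2*, higher with dexamethasone than with IgG by 0.43 (adjusted p = 0.00413 from limma). Of 12 receptors and processing enzymes bound to the proteasome, 4 were higher with dexamethasone than with IgG, beside 7.41% of all genes, among them the deubiquitinating enzymes *Usp14* (0.38) and *Uchl5* (0.34) and the shuttle factor *Ubqln4* (0.33). *Ubqln4* was 0.48 and 0.49 lower on the log2 scale with IgG and anti-*Vegf* than in naïve corneas. Of the 7 genes around *Nfe2l1*, *Vcp* was higher with dexamethasone than with IgG (0.22) and than with anti-*Vegf* (0.26). *Uba1*, the main ubiquitin-activating enzyme, was 0.30 and 0.31 higher in the same comparisons. Of these calls against IgG only that of *Psmg2* was kept in all fits without 1 array, while *Vcp* lost its call in 7 of 16, *Uba1* in 6, *Ubqln4* and *Uchl5* in 5 each and *Usp14* in 2. *Vcp* also lost it in 3 of 8 other settings. *Nfe2l1* changed from naïve corneas by −0.25, −0.32 and −0.03 and *Nfe2l2*, the related factor of the oxidative response, by −0.34, −0.34 and −0.20 with IgG, anti-*Vegf* and dexamethasone, all under the fold limit. By the adjusted p alone, *Nfe2l2* was lower with IgG, beside 15.7% of all genes. Both were lower with anti-*Vegf*, beside 15.9%, and neither with dexamethasone.

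Taken over all groups, *Psmb8*, *Psmb9* and *Psmb10* rose and fell together around their group means. This did not hold in every group. Among the anti-*Vegf* arrays, where the spread was small, replicate F2 was highest for *Psmb8* (9.55) and lowest for *Psmb10* (9.37). Over the 16 arrays, each taken as its deviation from the group mean, Pearson's r was 0.88 for *Psmb8* with *Psmb9*, 0.85 for *Psmb8* with *Psmb10* and 0.90 for *Psmb9* with *Psmb10*. The median r between these subunits and the 13 constitutive 20S genes was 0.34 and with the 17 subunits of the 19S particle 0.20, against 0.74 among the 20S genes, 0.55 among the 19S genes and 0.02 over all pairs of 14217 genes. With the subunit it replaces, *Psmb8* had an r of 0.08 (*Psmb5*) and *Psmb10* an r of 0.56 (*Psmb7*). *Psmb9* had an r of 0.43 with *Psmb5* and 0.49 with *Psmb7*. With *Ptprc*, r was 0.28 for *Psmb8*, 0.24 for *Psmb9* and −0.02 for *Psmb10*. These values describe 16 arrays whose points share tissue, hybridization and normalization, and no test was made of them. The SD of *Psmb7* was 0.28 in naïve corneas against 0.06 to 0.13 elsewhere, and that of *Psmd8* 0.42 against 0.10 to 0.21. For both, naïve replicates 1 and 2 lay below 3 and 4. For *Psmd1* the naïve SD was 0.07 against 0.05 to 0.11. The part of the naïve group in the r values was not tested.

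The genes most like each subunit by this measure were *Tap2* (0.93), *Cic* (0.90), *Psmb9* (0.88), *Psme2* (0.87) and *LOC102547573* (0.86) for *Psmb8*. For *Psmb9* they were *Tap2* (0.96), *Sirpa* (0.92), *Psmb10*, *Psme1* and *Cnksr1* (0.90 each), and for *Psmb10* they were *Il18bp* (0.94), *Cnksr1* (0.92), *Psmb9* (0.90), *Uba7* (0.89) and *Psme1* (0.88). *Psme1* and *Psme2* are thus among the closest genes by cornea, although their own change with suturing was small.

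**Figure D5:**
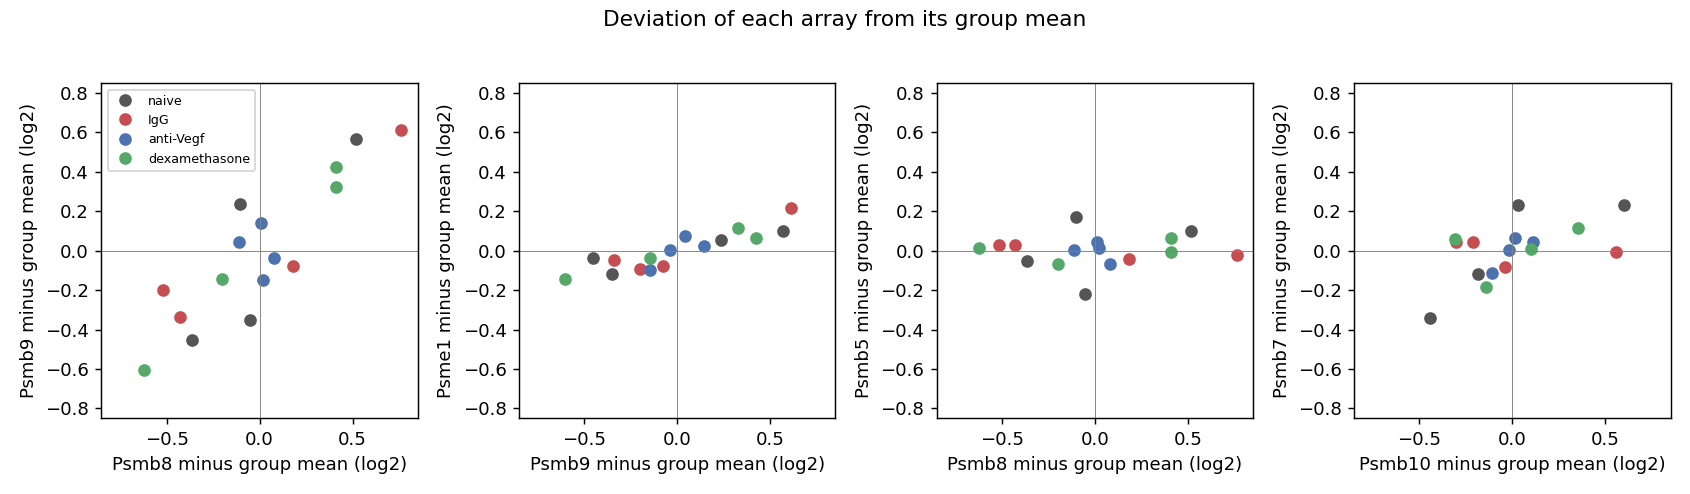
Deviation of each array from the mean of its group in log2 units, for *Psmb9* against *Psmb8*, *Psme1* against *Psmb9*, *Psmb5* against *Psmb8* and *Psmb7* against *Psmb10*; each point is 1 of 16 arrays, coloured by group. The points of *Psmb9* and *Psmb8* follow each other (r = 0.88), those of *Psme1* follow *Psmb9* over a narrower range (r = 0.90), and for the replaced subunits r is 0.08 (*Psmb5*) and 0.56 (*Psmb7*).

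In the 9 genes with more than 1 probe set, 0 had probe sets called in opposite directions under the limits used. Probe sets of the same gene did part in *Psmc6*, where they gave 0.19, 0.08 and −0.20 with IgG, and in *Psme4*, the PA200 activator, with −0.13, −0.31 and −0.52. The second probe set of *Psmd7* was 0.24 higher with IgG (adjusted p = 0.0159 from limma) where the one used here was at −0.11.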

How the data were processed

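RNA of 16 rat corneas (4 per group) was hybridised to 1 array each. As deposited, each probe set has a log2 signal that the authors had corrected for background and normalized in Affymetrix software, with RMA and Affymetrix Expression Console named in the submitters' processing notes. They were used as deposited, and 0 sample columns were left out. The scans before RMA were not analysed here. Array signals give no read depth, and the number of arrays limits the precision. Array medians lay between 6.548 and 6.614. As only right corneas were sutured, the sutured corneas of a group came from separate rats; for naïve corneas this is not given in the sources read, so their spread may be smaller than that between rats.

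Of 31099 probe sets, 57 controls were left out of the tests. Of the 31042 others, 20826 had 1 gene symbol, 436 several and 9780 none. A further 6 probe sets that list a proteasome gene with other genes were left out of the members. Tests used limma 3.58.1 in R 4.3.3 on all arrays, a mean for each group (12 residual degrees of freedom) and Benjamini-Hochberg adjustment over 31042 probe sets. A call against naïve corneas took a fold change of 1.5 with an adjusted p under 0.05, limits stated in the study's methods. Between treatments the adjusted p alone was used. The limma fit was tested on simulated data. Subunit differences per array were compared by exact permutation tests. Other steps ran in Python 3.11.15 with pandas 2.3.3.

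Members and gene lists were chosen with earlier results of these data known. Named genes were *Psmb5* to *Psmb10*, *Psme1*, *Psme2*, the members with the 4 largest called changes each way or the 3 smallest changes, all called members between treatments, up to 3 called genes per related list and a set of fixed pathway genes. *Psma2*, *Psma3*, *Psma4*, *Psma5*, *Psma7*, *Psmc6*, *Psmd2*, *Psmd3*, *Psmd5*, *Psmd10*, *Psmd11* and *Ifngr2* were named after their values were seen. As alternatives, the fit was changed (ordinary F test, trend and robust moderation, array weights, compared groups only), then the scaling (cyclic loess, or 9 reference genes set equal), then the features (dim probe sets dropped, or probe sets of a gene averaged), then the threshold (no fold limit, or no adjustment). Each array was also left out in turn. The counts over constitutive members under other scalings and without single arrays were added after seeing the data. The response element core was shortened by its last letter after a first search, so that it matches more promoters.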

Additional observations from a re-analysis of the deposited data

Results flagged for a closer look

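Among 52 groups of arrays checked, over the proteasome genes named by the rule, 4 held an array whose distance from its nearest neighbour took up most of the group's range (Dixon's test at the 5% level), which chance gives in about 1 group in 20. *Psme1* was 12.12 in IgG replicate F17, the array that was also highest for *Psmb8*, *Psmb9* and *Psmb10* in its group. *Psmc1* (9.85) and *Psmd14* (10.92) were low in anti-*Vegf* replicate F2, and *Psmc5* was low in dexamethasone replicate F27 (10.44).

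The change from naïve corneas differed between treatments for 6 genes, by the limma test of that difference. Relative to IgG, dexamethasone was higher for *Psmd1* (0.62 on the log2 scale), *Psmd7* (0.30), *Psmd14* (0.29), *Psmc1* (0.28), *Psmc5* (0.28) and *Psmc2* (0.23), in 4 of 4 arrays each. Relative to anti-*Vegf*, it was higher for *Psmd1* (0.51).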

How the results depend on the processing

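The calls of *Psmb8*, *Psmb9* and *Psmb10* against naïve corneas held under every other fit, scaling and array left out, where 3 members passed both limits each time. Without the fold limit 6 members passed with IgG, 11 with anti-*Vegf* and 17 with dexamethasone. The count of 6 for dexamethasone against IgG fell to 3 when only the compared groups were fitted and to 1 with centring on reference genes; it ranged from 1 to 6 when 1 array was left out, with 1 without IgG replicate F17 or F19 or dexamethasone replicate F26, 2 without F22 or F25 and 3 without F30. For dexamethasone against anti-*Vegf* the count of 1 became 2 with trend and robust moderation, cyclic loess and the filter on low signals, 6 at an unadjusted p, and 1 to 2 with 1 array left out, with 2 without anti-*Vegf* replicate F7 or naïve replicate 1, 2 or 4. For anti-*Vegf* against IgG 3 members passed at an unadjusted p. The 2, 8 and 13 constitutive members higher than naïve corneas by the adjusted p alone (IgG, anti-*Vegf*, dexamethasone) became 0, 2 and 2 with centring on reference genes, 1 for IgG with the mean of probe sets, and 1 to 2, 5 to 9 and 6 to 13 with 1 array left out, checks added after seeing the data. *Psmd1* was called in both treatment comparisons under every alternative, at 0.58 to 0.66 and 0.46 to 0.55, while *Psmc1*, *Psmc2*, *Psmc5*, *Psmd7* and *Psmd14* lost their calls with centring on reference genes, at differences of 0.19 to 0.25. That centring sets the median of all probe sets at −0.15 to −0.20 against naïve corneas and at −0.04 for dexamethasone against IgG. *Psmb8* minus *Psmb5* in dexamethasone against naïve corneas passed the unadjusted exact test with cyclic loess (1.06) and with the mean of probe sets (1.11), and *Psmb10* minus *Psmb7* in dexamethasone against anti-*Vegf* with cyclic loess (−0.30); in each case the cause was not tested. No alternative reversed a called value. No paired analysis was possible because the groups share no replicate numbers. The planned difference *Psmb9* minus *Psmb6* was not run. RMA signals carry no detection call, so only the rank of a signal describes how near it is to background.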
